A study of Homo sapiens with 24 samples.

Results

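The 46 genes described here encode proteins of mitosis and of the G2/M transition: mitotic cyclins and kinases, spindle checkpoint and kinetochore proteins, spindle motors, and factors of anaphase and cytokinesis. They were chosen by name, as known genes of these roles, but with earlier results of these data known. The choice was therefore not independent of the data. Each gene was found by its Ensembl gene ID among the 63299 genes of the count table. All 46 passed the filter on low counts, so every member is among the 20240 genes tested.

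A2780 is a platinum-sensitive human ovarian cancer cell line and A2780cis its isogenic platinum-resistant derivative, which was periodically grown with cisplatin to maintain resistance. At 48 h after seeding, the medium was replaced by medium with 1 µM 5-FdU-ECyd, a duplex prodrug that joins the antimetabolites 5-FdU and ECyd, or by standard growth medium as the untreated control, and cells were harvested after 6 h or 12 h. The 8 groups of line, treatment and time held 3 libraries each, 24 in all, with 11077368 to 21901406 counts per library. Over all genes the spread between libraries of a group exceeded sampling noise, which need not hold for members with few reads. The labels number the libraries of a group as replicates, and the paper calls them biological triplicates. Neither says whether they came from separate cultures. The p-values measure the spread between these libraries, which need not be that between separate cultures. Of the ovarian and epithelial markers, PAX8, WT1, KRT7, KRT19, MUC16 and CDH1 were at or near 0 in all 24 libraries (at most 0.291 CPM). EPCAM reached 1.96, KRT8 6.82 and KRT18 28.4 CPM. Of the mesenchymal markers, VIM ranged from 788 to 2770 CPM and CDH2 from 1.21 to 55.6 CPM. At 12 h their sum was 2320 to 2590 CPM untreated and 830 to 949 CPM treated in A2780. In A2780cis it was 2250 to 2420 CPM untreated and 789 to 891 CPM treated. The defining markers of leukocytes and endothelium stayed below 0.3 CPM in every library. The fibroblast markers COL1A1, DCN and LUM summed to between 17.0 and 22.8 CPM in A2780 and between 1.66 and 4.02 CPM in A2780cis, and their part in the differences between the lines was not tested.

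Cells enter mitosis when cyclin B and CDK1, switched on by CDC25 phosphatases, pass a threshold of activity. The spindle checkpoint then holds the anaphase-promoting complex inactive until kinetochores are attached to microtubules, after which securin and cyclin B are destroyed and separase opens cohesin. Transcripts of these genes peak in G2 and M phase in dividing cells, and many of their promoters carry a cell cycle genes homology region (CHR), read by the MuvB complex together with B-MYB and FOXM1, and CCAAT boxes bound by NF-Y. In bulk RNA, fewer cells in G2 and M phase and less of each transcript per cell cannot be told apart.

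Treatment lowered most of these transcripts in both lines. Levels are given as CPM, counts scaled to TMM-adjusted library size. They are relative to the other transcripts of a library. No amount of RNA per cell is given in the sources used here, so a rise or fall below is a relative one. The summed level of the 46 genes in untreated A2780 was 6813, 6745 and 6474 at 6 h and 6913, 6793 and 6092 at 12 h, against 3496, 3795 and 3868 and then 3841, 3633 and 3619 in the treated libraries. In A2780cis, the untreated libraries summed to 7078, 7188 and 7148 CPM at 6 h and 7059, 6674 and 6438 CPM at 12 h, against 4601, 4127 and 4047 CPM and then 2586, 2353 and 2450 CPM with 5-FdU-ECyd. Treated and untreated libraries did not overlap at either time in either line, and the treated A2780cis libraries at 12 h had the lowest sums of all 24.

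A gene is said to have risen or fallen when edgeR's quasi-likelihood test gave a Benjamini-Hochberg adjusted p of at most 0.05 over all 20240 genes. At 6 h in A2780, 39 members fell and 1 rose, where 13.4% of all tested genes fell and 16% rose (29.4% in either direction). At 12 h in A2780, 37 fell and 2 rose, where 26.1% of all genes fell and 28.6% rose (54.8% in either direction). In A2780cis, 40 fell and 0 rose at 6 h (all genes: 16.3% lower, 14.4% higher, 30.7% either), and 43 fell and 1 rose at 12 h (28.9% lower, 31.0% higher, 59.9% either). With library size alone as the scaling, the median over all genes in A2780 at 12 h moved to 0.24, and 31 members fell and 5 rose there. With TMM, the median log2 fold change (log2 FC) of the members was -0.83 and -0.70 at 6 h and 12 h in A2780 and -0.78 and -1.34 in A2780cis, while the median over all tested genes lay between 0.00 and 0.04. The 34 members that fell in all 4 comparisons span every role. The treated libraries lay below every untreated library for 41 and 37 members in A2780 at 6 h and 12 h, and for 42 and 43 in A2780cis. Neither this count nor that of falls in all 4 comparisons was made over all genes. Neither can therefore be set against a background share.

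**Figure D1:**
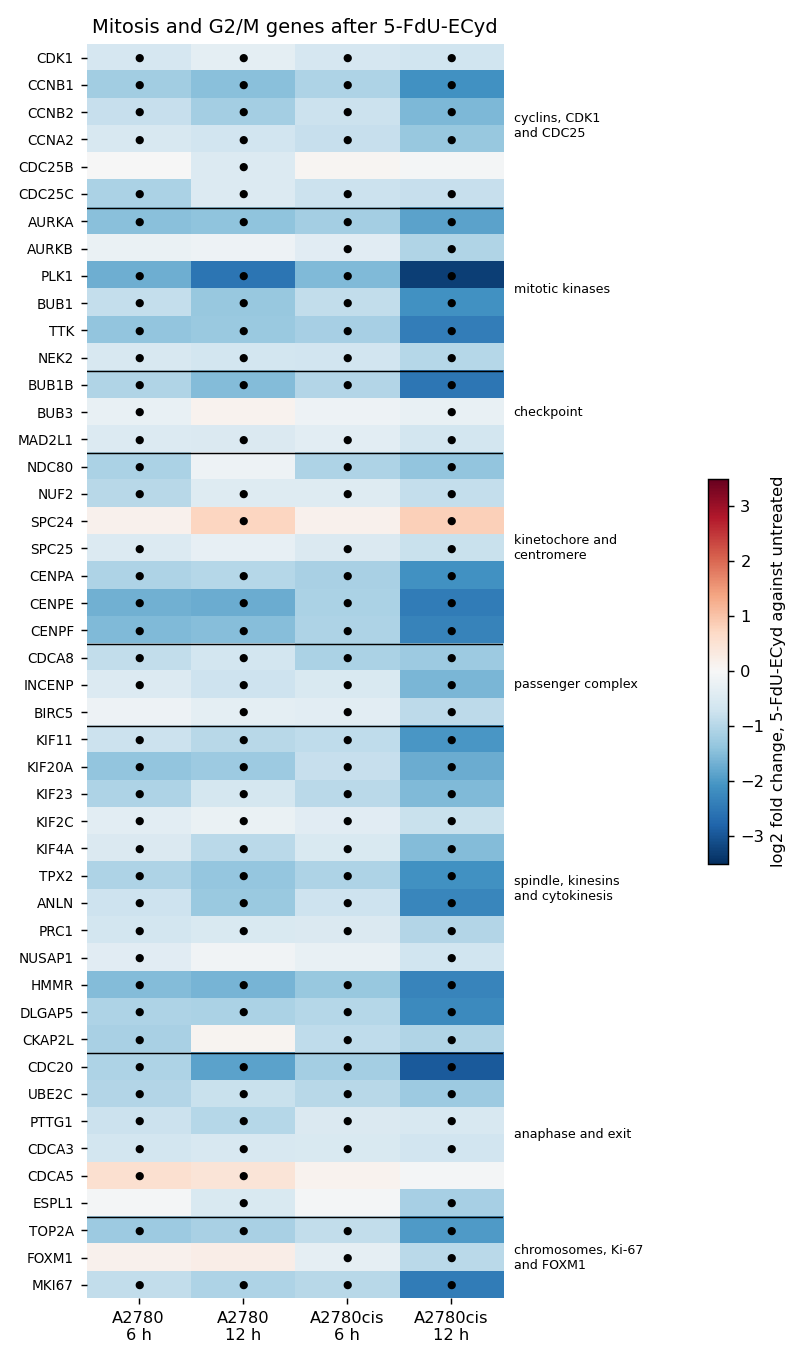
Log2 fold change of each of the 46 genes (rows, grouped by role) in 5-FdU-ECyd against untreated libraries (n = 3 against 3) for each line and time (columns); blue is lower, red higher, and a dot marks an adjusted p of at most 0.05. Blue fills most rows and is darkest in A2780cis at 12 h, while SPC24 and CDCA5 hold the red cells with a dot.

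Among all genes tested, 158 fell by at least 2 on the log2 scale in A2780 at 12 h, and PLK1 was the 1 member among them. In A2780cis at 12 h, 242 genes fell that far and 15 of them were members: CCNB1, PLK1, BUB1, BUB1B, TTK, CENPA, CENPE, CENPF, KIF11, TPX2, CDC20, MKI67, ANLN, HMMR and DLGAP5. At 6 h no member fell that far in either line.

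Promoter sequence is shown because most of these genes fell with treatment. Each of 2 short motifs, which the choice of members did not use, stood in most of the member promoters available, but not in all. The promoter windows of RefSeq (GRCh38.p14), 250 bases before to 50 bases after the transcript start, held 39 of the 46 members, and 7 had no entry (TTK, BUB3, FOXM1, TPX2, BIRC5, AURKA and UBE2C). The windows below are those of PLK1 and CDC20, which fell most at 12 h, of CCNB1 and BUB1B, and of NDC80 and SPC24, whose responses departed from the others. Capitals mark TTTGAA and TTTAAA, the common forms of the CHR, and CCAAT, on either strand (TTCAAA and ATTGG are their reverse complements), and each sequence is given 5′ to 3′ on the strand of its gene.
PLK1 (chr16:23678639-23678938, plus strand): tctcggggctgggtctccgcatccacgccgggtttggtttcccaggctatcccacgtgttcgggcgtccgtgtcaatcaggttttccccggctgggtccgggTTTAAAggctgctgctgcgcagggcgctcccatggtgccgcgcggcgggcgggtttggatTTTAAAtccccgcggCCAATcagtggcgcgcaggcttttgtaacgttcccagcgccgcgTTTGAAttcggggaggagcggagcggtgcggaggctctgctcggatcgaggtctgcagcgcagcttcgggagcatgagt
CDC20 (chr1:43358731-43359030, plus strand): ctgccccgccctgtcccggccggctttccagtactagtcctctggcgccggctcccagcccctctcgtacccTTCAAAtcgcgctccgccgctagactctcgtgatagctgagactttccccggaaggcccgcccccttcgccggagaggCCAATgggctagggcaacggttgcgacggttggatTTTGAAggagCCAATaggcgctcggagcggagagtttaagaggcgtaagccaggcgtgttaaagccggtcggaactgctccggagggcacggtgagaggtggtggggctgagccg
CCNB1 (chr5:69166900-69167199, plus strand): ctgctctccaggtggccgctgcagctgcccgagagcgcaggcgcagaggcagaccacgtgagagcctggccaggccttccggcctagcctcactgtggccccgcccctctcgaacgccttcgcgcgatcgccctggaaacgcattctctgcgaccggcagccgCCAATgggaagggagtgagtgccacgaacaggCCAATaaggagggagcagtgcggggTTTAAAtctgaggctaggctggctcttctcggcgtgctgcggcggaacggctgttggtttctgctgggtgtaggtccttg
BUB1B (chr15:40160819-40161118, plus strand): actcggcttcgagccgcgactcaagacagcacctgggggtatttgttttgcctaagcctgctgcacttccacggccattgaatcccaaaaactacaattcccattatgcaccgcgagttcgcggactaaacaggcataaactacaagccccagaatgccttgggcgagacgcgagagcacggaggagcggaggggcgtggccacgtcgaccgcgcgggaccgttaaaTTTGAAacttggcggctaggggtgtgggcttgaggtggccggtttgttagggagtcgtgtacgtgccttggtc
NDC80 (chr18:2571307-2571606, plus strand): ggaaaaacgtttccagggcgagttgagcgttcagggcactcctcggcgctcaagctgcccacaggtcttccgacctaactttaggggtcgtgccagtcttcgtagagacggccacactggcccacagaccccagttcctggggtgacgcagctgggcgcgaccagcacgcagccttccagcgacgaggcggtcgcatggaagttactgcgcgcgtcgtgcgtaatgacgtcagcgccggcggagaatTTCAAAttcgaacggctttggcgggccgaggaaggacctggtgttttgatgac
SPC24 (chr19:11155733-11156032, minus strand): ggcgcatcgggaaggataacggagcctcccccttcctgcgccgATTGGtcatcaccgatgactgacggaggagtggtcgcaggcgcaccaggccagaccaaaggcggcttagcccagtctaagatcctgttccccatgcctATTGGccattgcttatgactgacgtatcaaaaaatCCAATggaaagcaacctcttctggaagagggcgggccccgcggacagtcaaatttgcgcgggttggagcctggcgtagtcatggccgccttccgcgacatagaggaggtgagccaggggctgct

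TTTGAA or TTTAAA stood in the window of 33 of the 39 members (84.6%), against 27.9% of all 27305 genes of the table and 21.5% of the 12023 other genes tested here. CCAAT stood in 32 of 39 (82.1%), against 39.7% of all genes, and at least 2 CCAAT in 21 of 39 (53.8%), against 12.9%. Either CHR form can overlap the other, or CCAAT, by a base or a few at their ends, and a gene with several windows counted once. Over the 200 bases before the start alone, 66.7% of the members held a CHR form, against 20.4% of all genes. The 6 members without either CHR form were AURKB, BUB1, CCNA2, CDCA5, NEK2 and SPC24, which include SPC24 and CDCA5, the members that rose, but also BUB1, which fell by 2.13 in A2780cis at 12 h. At 12 h the 33 members with a CHR form had medians of -0.95 (A2780) and -1.55 (A2780cis) on the log2 FC scale, and the 6 without had -0.40 and -1.02. The 32 members with CCAAT had -0.70 and -1.42 at 12 h, and the 7 without had -0.46 and -1.37. At 6 h in A2780 the members with CCAAT fell less, -0.79 against -0.98. Whether either motif bears on the fall was not tested. A match of letters is a description of the window and not a binding site.

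**Figure D2:**
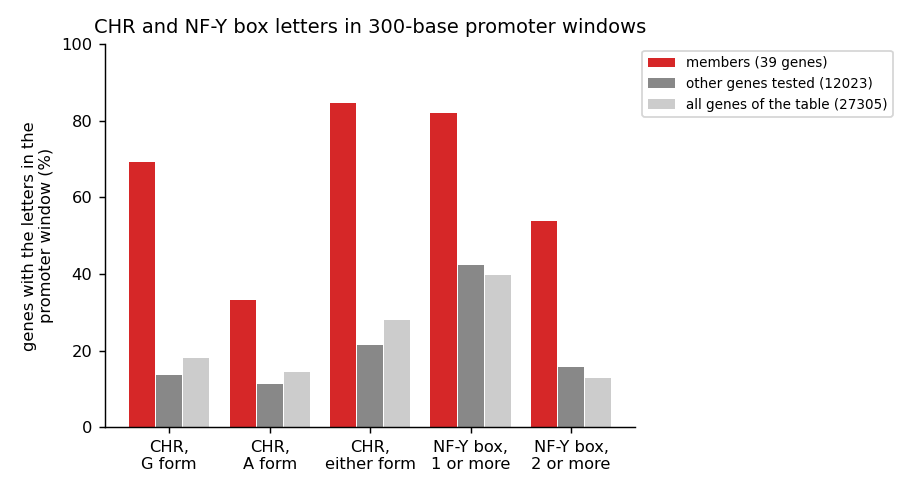
Share of genes (%, vertical axis) whose 300-base promoter window holds each motif on either strand, for 39 members, 12023 other tested genes and all 27305 genes of the table; the G form and A form of the CHR and the NF-Y box are spelled out in the text. The member bars exceed both others for each motif, with 84.6% against 27.9% of all genes for either CHR form.

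Cyclins, CDK1 and its CDC25 activators are given first, in order of action. CCNB1, cyclin B1, was the most abundant member per exon length in untreated A2780 at 6 h (163 RPKM). CCNB1 in A2780 had 384, 434 and 374 CPM untreated and 158, 170 and 186 CPM treated at 6 h, and 362, 333 and 333 CPM untreated and 134, 116 and 123 CPM treated at 12 h. CCNB1 in A2780cis had 321, 302 and 384 CPM untreated and 182, 151 and 145 CPM treated at 6 h, and 295, 255 and 244 CPM untreated and 69.2, 48.1 and 64.6 CPM treated at 12 h. No treated library reached an untreated one, and CCNB1 fell 2.32-fold and 2.75-fold in A2780 and 2.1-fold and 4.36-fold in A2780cis (log2 FC -2.13 ± 0.13 SE at 12 h, adjusted p = 3.71e-13, edgeR). CCNB2, cyclin B2, had 69.6, 76.8 and 69.3 CPM untreated and 38.4, 40.5 and 43.2 CPM treated at 6 h, and 88.8, 83.6 and 79.1 CPM untreated and 38.7, 36.4 and 35.9 CPM treated at 12 h in A2780. The A2780cis libraries held 74.3, 66.6 and 79.3 CPM untreated and 45, 43.1 and 42.3 CPM treated at 6 h, and 77.8, 71 and 70.4 CPM untreated and 24.8, 21.4 and 28.4 CPM treated at 12 h of CCNB2. All CCNB2 groups were separate, with log2 FC -0.82 and -1.18 at 6 h and 12 h in A2780, and -0.76 and -1.56 in A2780cis. CCNA2, cyclin A2, which acts in S phase and into early mitosis, had 206, 191 and 183 CPM untreated and 120, 135 and 142 CPM treated at 6 h, and 199, 194 and 179 CPM untreated and 130, 115 and 113 CPM treated at 12 h in A2780. In A2780cis, CCNA2 had 190, 204 and 216 CPM untreated and 124, 110 and 114 CPM treated at 6 h, and 195, 179 and 166 CPM untreated and 81.9, 70.3 and 64.6 CPM treated at 12 h. CCNA2 fell at every point, least in A2780 at 6 h (-0.55) and most in A2780cis at 12 h (-1.32).

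CDK1, the kinase partner of these cyclins, was also lower with treatment. CDK1 stood at 386, 359 and 339 CPM untreated and 212, 245 and 266 CPM treated at 6 h, and 317, 314 and 267 CPM untreated and 266, 220 and 227 CPM treated at 12 h in A2780. It stood at 305, 305 and 354 CPM untreated and 229, 214 and 202 CPM treated at 6 h, and 265, 230 and 208 CPM untreated and 167, 129 and 140 CPM treated at 12 h in A2780cis. The treated libraries were lower in each pair of groups without overlap, and log2 FC -0.58 and -0.33 at 6 h and 12 h in A2780, and -0.58 and -0.69 in A2780cis all passed the test. The ratio of the treated to the untreated level was 61.7% in A2780cis at 12 h for CDK1 and 23.0% for CCNB1.

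CDC25C and CDC25B, phosphatases that activate CDK1, differed in their response. CDC25C was the least abundant member in untreated A2780 at 6 h (4.76 RPKM). CDC25C had 16.4, 16.6 and 14.6 CPM untreated and 6.31, 8.33 and 7.55 CPM treated at 6 h, and 20.5, 18.4 and 19.9 CPM untreated and 14, 14.7 and 13.8 CPM treated at 12 h in A2780. Its A2780cis levels were 17.8, 13.6 and 15 CPM untreated and 9.97, 9.35 and 8.43 CPM treated at 6 h, and 15.8, 14.4 and 15.4 CPM untreated and 8.64, 7.87 and 9.54 CPM treated at 12 h. CDC25C fell at every point, and in A2780 by less at 12 h (-0.47) than at 6 h (-1.10). CDC25B had 19, 22.7 and 25.3 CPM untreated and 24.6, 21.8 and 19.4 CPM treated at 6 h, and 34.9, 36.4 and 39.7 CPM untreated and 24, 29.7 and 26.3 CPM treated at 12 h in A2780. CDC25B in A2780cis had 76, 85.8 and 75.4 CPM untreated and 78.4, 79.8 and 89.7 CPM treated at 6 h, and 99.1, 120 and 131 CPM untreated and 94.8, 117 and 121 CPM treated at 12 h. Treated and untreated CDC25B libraries overlapped except in A2780 at 12 h, where CDC25B fell (-0.47 ± 0.12, adjusted p = 0.00221, edgeR). In A2780cis at 12 h its log2 FC was -0.07 with a 95% interval of -0.31 to 0.17. CDC25B was the member that most separated the untreated lines, at log2 FC 1.83 and 1.65 higher in A2780cis at 6 h and 12 h.

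Of the 6 mitotic kinases, 5 fell in A2780 at each time, and all 6 fell in A2780cis at each time. Of all genes, 13.4% and 26.1% fell in A2780 at 6 h and 12 h, and 16.3% and 28.9% in A2780cis. PLK1, which drives centrosome maturation, mitotic entry and cytokinesis, had 47.6, 64.5 and 57.6 CPM untreated and 19.4, 18.7 and 14 CPM treated at 6 h, and 77, 86 and 108 CPM untreated and 13.9, 15.3 and 16.6 CPM treated at 12 h in A2780. PLK1 in A2780cis had 64.9, 75.7 and 63.2 CPM untreated and 25.8, 18.9 and 25.3 CPM treated at 6 h, and 91.9, 116 and 121 CPM untreated and 10.8, 11.9 and 10.7 CPM treated at 12 h. Untreated PLK1 was higher at 12 h than at 6 h in every library of both lines, while the treated libraries stayed between 10.7 and 25.8 CPM. PLK1 fell more than any other member in all 4 comparisons, with log2 FC -1.71 and -2.56 at 6 h and 12 h in A2780, and -1.54 and -3.30 in A2780cis (9.84-fold lower, adjusted p = 9.47e-15, edgeR). An unnamed antisense gene that shares exon bases with PLK1 (ENSG00000261266, at most 8.15 CPM) had log2 FC -2.56 and -3.37 at 12 h in A2780 and A2780cis. The study's counting allowed a read to be assigned to several overlapping genes. Its strand setting is not given in the sources used here, and without it reads of such a pair cannot be told apart.

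AURKA, the Aurora kinase of centrosomes and spindle poles, had 157, 172 and 153 CPM untreated and 57, 58.3 and 58.2 CPM treated at 6 h, and 147, 144 and 146 CPM untreated and 57.9, 53 and 53.6 CPM treated at 12 h in A2780. Its A2780cis libraries had 168, 141 and 170 CPM untreated and 84, 65.1 and 63.1 CPM treated at 6 h, and 148, 138 and 129 CPM untreated and 41.9, 31.9 and 39.7 CPM treated at 12 h. AURKA fell 2.77-fold at 6 h and 2.66-fold at 12 h in A2780, and 2.26-fold and 3.65-fold in A2780cis. AURKB, the Aurora kinase of the chromosomal passenger complex, had smaller responses. AURKB stood at 41.6, 45.9 and 48.4 CPM untreated and 38.7, 41.2 and 36.8 CPM treated at 6 h, and 56.6, 60.5 and 73.1 CPM untreated and 54.6, 59.5 and 54.6 CPM treated at 12 h in A2780. In A2780cis it stood at 42.4, 36.4 and 43.7 CPM untreated and 28, 29.9 and 34.5 CPM treated at 6 h, and 56, 56 and 65.4 CPM untreated and 26.4, 28.1 and 31.4 CPM treated at 12 h. AURKB did not pass the test in A2780, where its groups overlapped at 12 h (log2 FC -0.22 and -0.17, the latter 0.05 with library size alone), and fell in A2780cis (-0.40 and -1.05). Of the other kinases, TTK, which starts checkpoint signalling, had log2 FC -1.39 and -1.29 at 6 h and 12 h in A2780, and -1.16 and -2.43 in A2780cis. BUB1, a checkpoint kinase of the kinetochore, had log2 FC -0.84 and -1.32 at 6 h and 12 h in A2780, and -0.87 and -2.13 in A2780cis. NEK2, which separates centrosomes, moved less, with log2 FC -0.57 and -0.63 at 6 h and 12 h in A2780, and -0.68 and -0.99 in A2780cis, and all of these values passed the test.

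The spindle checkpoint proteins were unequal. BUB1B (BUBR1), part of the complex that inhibits the anaphase-promoting complex, had 205, 185 and 186 CPM untreated and 85.5, 94.7 and 101 CPM treated at 6 h, and 189, 182 and 166 CPM untreated and 66.8, 58.3 and 63.1 CPM treated at 12 h in A2780. BUB1B in A2780cis had 223, 213 and 224 CPM untreated and 123, 99.6 and 102 CPM treated at 6 h, and 221, 192 and 181 CPM untreated and 37, 33.2 and 31.8 CPM treated at 12 h. The treated A2780cis libraries at 12 h had the lowest BUB1B levels of all, and log2 FC -1.04 and -1.51 at 6 h and 12 h in A2780, and -1.03 and -2.54 in A2780cis all passed the test. MAD2L1 (MAD2), its partner in that complex, had 193, 198 and 164 CPM untreated and 119, 138 and 137 CPM treated at 6 h, and 159, 157 and 148 CPM untreated and 129, 100 and 97.5 CPM treated at 12 h in A2780. MAD2L1 was at 147, 150 and 171 CPM untreated and 128, 121 and 116 CPM treated at 6 h, and 151, 135 and 125 CPM untreated and 98.8, 84.9 and 79.2 CPM treated at 12 h in A2780cis. MAD2L1 fell at all 4 points by much less than BUB1B (-0.64 against -2.54 in A2780cis at 12 h). BUB3, which binds BUB1 and BUBR1, had log2 FC -0.25 and 0.13 at 6 h and 12 h in A2780, and -0.19 and -0.27 in A2780cis, of which the A2780 6 h and the A2780cis 12 h values passed the test.

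**Figure D3:**
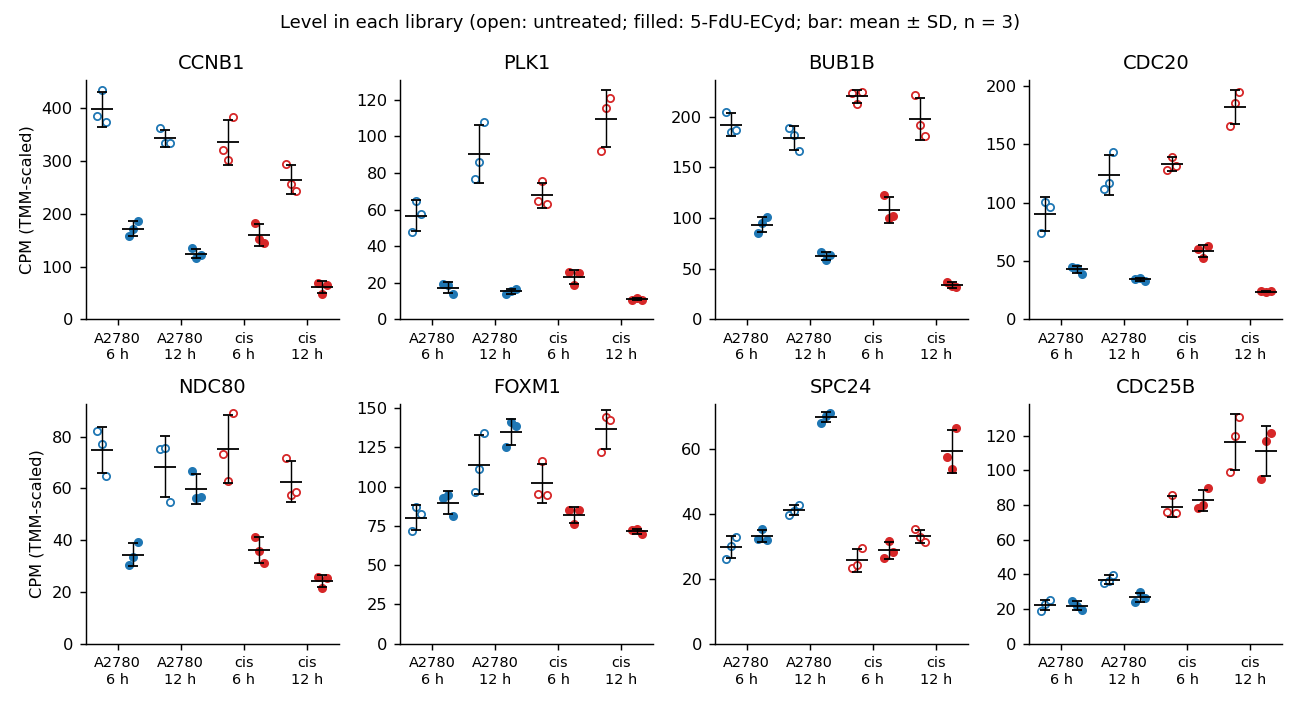
CPM (vertical axis, from 0) of 8 genes in each of the 24 libraries by line and time; open points are untreated, filled points treated, and bars give the mean ± SD of 3 libraries. CCNB1, PLK1, BUB1B and CDC20 are lower in every treated group, NDC80 overlaps in A2780 at 12 h, FOXM1 is lower with treatment in A2780cis and overlaps in A2780, SPC24 is higher with treatment at 12 h, and CDC25B is higher in A2780cis.

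Among the 7 kinetochore and centromere genes, 6 fell at 6 h in each line, where 13.4% (A2780) and 16.3% (A2780cis) of all genes fell. At 12 h, 4 fell and 1 rose in A2780, where 26.1% of all genes fell and 28.6% rose. In A2780cis at 12 h, 6 fell and 1 rose, where 28.9% fell and 31.0% rose. The NDC80 complex, which grips the microtubule, has 4 subunits that did not move as a unit. NDC80 in A2780 had 82.3, 77.1 and 64.9 CPM untreated and 30.5, 33.5 and 39.2 CPM treated at 6 h, and 75.1, 75.5 and 54.8 CPM untreated and 66.6, 56.2 and 56.8 CPM treated at 12 h. NDC80 in A2780cis had 73.5, 63.1 and 89.2 CPM untreated and 41.1, 35.9 and 31.2 CPM treated at 6 h, and 71.8, 57.6 and 58.5 CPM untreated and 25.7, 21.6 and 25.4 CPM treated at 12 h. NDC80 fell in both lines at 6 h (-1.12 and -1.07), whereas at 12 h its A2780 libraries overlapped (-0.19, adjusted p = 0.251, edgeR, and 0.03 with library size alone) and it fell in A2780cis (-1.37). NUF2, its binding partner, had log2 FC -0.98 and -0.46 at 6 h and 12 h in A2780, and -0.46 and -0.84 in A2780cis, all past the test. SPC25 had log2 FC -0.47 and -0.30 at 6 h and 12 h in A2780, and -0.50 and -0.77 in A2780cis, and the A2780 value at 12 h did not pass.

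SPC24, the partner of SPC25 in that complex, was the member that rose in both lines. SPC24 stood at 26.3, 30.3 and 32.8 CPM untreated and 32.4, 35.5 and 32.1 CPM treated at 6 h, and 39.8, 40.9 and 42.9 CPM untreated and 68.2, 70.3 and 71.3 CPM treated at 12 h in A2780. SPC24 in A2780cis stood at 23.3, 24.2 and 29.6 CPM untreated and 26.5, 31.7 and 28.4 CPM treated at 6 h, and 35.4, 32.8 and 31.5 CPM untreated and 57.6, 53.9 and 66.6 CPM treated at 12 h. Its treated and untreated libraries overlapped at 6 h, and at 12 h every treated library was higher, by 1.7-fold in A2780 (log2 FC 0.76 ± 0.10, adjusted p = 8.37e-07, edgeR) and 1.79-fold in A2780cis (0.84 ± 0.10, adjusted p = 1.77e-07).

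CENPE, a kinesin that moves chromosomes to the spindle equator, had 216, 152 and 202 CPM untreated and 54.1, 58.9 and 66.3 CPM treated at 6 h, and 184, 171 and 126 CPM untreated and 49.5, 49.5 and 45.2 CPM treated at 12 h in A2780. CENPE had 103, 106 and 103 CPM untreated and 53.3, 48.6 and 44.2 CPM treated at 6 h, and 107, 95.5 and 84.9 CPM untreated and 17.3, 19.5 and 16 CPM treated at 12 h in A2780cis. CENPE fell at all 4 points (3.33-fold and 5.44-fold at 12 h), and its untreated level was lower in every A2780cis library than in every A2780 library of the same time. CENPF, a large outer kinetochore protein, had 533, 464 and 488 CPM untreated and 154, 175 and 182 CPM treated at 6 h, and 577, 553 and 364 CPM untreated and 184, 177 and 170 CPM treated at 12 h in A2780. For CENPF the A2780cis libraries had 305, 309 and 242 CPM untreated and 150, 134 and 122 CPM treated at 6 h, and 309, 273 and 257 CPM untreated and 53.2, 59.2 and 53.2 CPM treated at 12 h. CENPF resembled CENPE, with log2 FC -1.54 and -1.49 at 6 h and 12 h in A2780, and -1.08 and -2.34 in A2780cis. CENPA, the histone H3 variant of centromeres, had log2 FC -1.09 and -1.0 at 6 h and 12 h in A2780, and -1.14 and -2.11 in A2780cis, all past the test.

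The chromosomal passenger complex holds AURKB with INCENP, borealin and survivin. INCENP, its scaffold, had 25.5, 31.4 and 31.1 CPM untreated and 24.5, 19.8 and 18.7 CPM treated at 6 h, and 50.8, 53 and 57.1 CPM untreated and 27.7, 32.7 and 36.3 CPM treated at 12 h in A2780. In A2780cis INCENP had 29, 34.5 and 24 CPM untreated and 19.9, 17.2 and 23.1 CPM treated at 6 h, and 40.7, 57.6 and 61.1 CPM untreated and 17.4, 21.4 and 13.7 CPM treated at 12 h. INCENP fell at every point (-0.48 and -0.73 in A2780, -0.53 and -1.60 in A2780cis), and its untreated level was higher at 12 h than at 6 h. CDCA8 (borealin) had 53.1, 62.5 and 57 CPM untreated and 29.9, 34.1 and 31.1 CPM treated at 6 h, and 64.5, 64.3 and 77 CPM untreated and 44.4, 46.3 and 42.7 CPM treated at 12 h in A2780. CDCA8 had 40.6, 47 and 41 CPM untreated and 18.7, 21.1 and 19.6 CPM treated at 6 h, and 44.2, 45.8 and 49.4 CPM untreated and 18, 20.2 and 19.9 CPM treated at 12 h in A2780cis. It fell at all 4 points without overlap of the groups. BIRC5 (survivin) had 99.3, 112 and 107 CPM untreated and 97.7, 95.7 and 89.8 CPM treated at 6 h, and 124, 127 and 127 CPM untreated and 102, 97.4 and 97.6 CPM treated at 12 h in A2780. BIRC5 was at 114, 111 and 112 CPM untreated and 86.7, 80.2 and 92.1 CPM treated at 6 h, and 131, 134 and 131 CPM untreated and 72.7, 61.1 and 75.7 CPM treated at 12 h in A2780cis. BIRC5 had log2 FC -0.17 at 6 h in A2780, which did not pass the test, and -0.35, -0.38 and -0.92 elsewhere, which did.

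The 12 genes of the spindle, the kinesins and cytokinesis fell almost throughout: 12 and 10 of 12 in A2780 at 6 h and 12 h, and 11 and 12 in A2780cis. The shares of all genes lower were 13.4% and 26.1% in A2780, and 16.3% and 28.9% in A2780cis. KIF11 (Eg5), the motor that pushes spindle poles apart, had 176, 170 and 167 CPM untreated and 90, 103 and 110 CPM treated at 6 h, and 175, 175 and 144 CPM untreated and 94, 77.9 and 82.6 CPM treated at 12 h in A2780. KIF11 in A2780cis had 186, 194 and 185 CPM untreated and 113, 99 and 94.1 CPM treated at 6 h, and 178, 170 and 159 CPM untreated and 47.8, 40.7 and 36.1 CPM treated at 12 h. The lowest levels were those of treated A2780cis at 12 h, 4.07-fold below untreated, against 1.94-fold in A2780. TPX2, which activates Aurora A on the spindle, had 250, 256 and 246 CPM untreated and 112, 121 and 122 CPM treated at 6 h, and 287, 301 and 269 CPM untreated and 119, 110 and 104 CPM treated at 12 h in A2780. TPX2 had 275, 321 and 281 CPM untreated and 149, 131 and 135 CPM treated at 6 h, and 295, 279 and 275 CPM untreated and 68.8, 60.1 and 68.6 CPM treated at 12 h in A2780cis. No TPX2 groups overlapped, and log2 FC -1.08 and -1.36 at 6 h and 12 h in A2780, and -1.08 and -2.11 in A2780cis all passed. KIF20A, a kinesin of the cleavage plane, had 86.2, 82.5 and 84.2 CPM untreated and 30.6, 32.3 and 34.6 CPM treated at 6 h, and 102, 97.4 and 103 CPM untreated and 39.9, 41.8 and 42.8 CPM treated at 12 h in A2780. KIF20A in A2780cis had 133, 133 and 137 CPM untreated and 82.9, 76.7 and 71.8 CPM treated at 6 h, and 134, 127 and 121 CPM untreated and 40.6, 34.6 and 38.7 CPM treated at 12 h. KIF20A fell at every point, at 6 h by more in A2780 (-1.37) than in A2780cis (-0.80).

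KIF23, the kinesin of the central spindle, had 187, 164 and 166 CPM untreated and 73.7, 85.5 and 86.7 CPM treated at 6 h, and 148, 146 and 120 CPM untreated and 95.6, 90.2 and 83.8 CPM treated at 12 h in A2780. Its levels in A2780cis were 237, 233 and 246 CPM untreated and 135, 125 and 116 CPM treated at 6 h, and 205, 187 and 172 CPM untreated and 70, 61 and 61.1 CPM treated at 12 h. KIF23 fell at every point, in A2780 by 1.07 and 0.62 on the log2 scale and in A2780cis by 0.93 and 1.55. ANLN (anillin), which organises the contractile ring, had 261, 274 and 248 CPM untreated and 143, 158 and 169 CPM treated at 6 h, and 236, 224 and 179 CPM untreated and 94.4, 82.8 and 83.8 CPM treated at 12 h in A2780. ANLN was at 305, 275 and 297 CPM untreated and 201, 164 and 166 CPM treated at 6 h, and 282, 253 and 234 CPM untreated and 57.9, 54.5 and 46.9 CPM treated at 12 h in A2780cis. Every treated library was below every untreated one, and the difference was larger at 12 h than at 6 h in each line. HMMR, a microtubule-binding protein of spindle poles, had 87.8, 80.7 and 78.7 CPM untreated and 25.2, 29.6 and 31.6 CPM treated at 6 h, and 92, 90.1 and 64.4 CPM untreated and 29.8, 25.3 and 24.7 CPM treated at 12 h in A2780. HMMR had 78.1, 72.2 and 82.8 CPM untreated and 33.4, 31.6 and 27.8 CPM treated at 6 h, and 86.6, 76.6 and 64.8 CPM untreated and 16.1, 15.6 and 14.3 CPM treated at 12 h in A2780cis. HMMR fell by 1.52 and 1.33 on the log2 scale at 6 h in A2780 and A2780cis. At 12 h its level was lower 3.09-fold and 4.95-fold, and its antisense gene HMMR-AS1 had log2 FC -1.52 and -2.17 there, beside -1.63 and -2.31 for HMMR.

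CKAP2L, a spindle protein, was low throughout. CKAP2L had 27.9, 29.7 and 25.5 CPM untreated and 11.3, 14.2 and 12.4 CPM treated at 6 h, and 31.4, 29.4 and 23.8 CPM untreated and 30.9, 30.2 and 28.9 CPM treated at 12 h in A2780. In A2780cis CKAP2L had 32.6, 33.6 and 33.9 CPM untreated and 19.4, 18 and 16.5 CPM treated at 6 h, and 38.3, 35.4 and 31.1 CPM untreated and 19, 17.7 and 13.5 CPM treated at 12 h. It fell at 6 h in both lines (-1.13 and -0.90), and at 12 h the A2780 groups overlapped (0.09) while it fell in A2780cis (-1.06). DLGAP5 (HURP), which bundles kinetochore fibres, had log2 FC -1.07 and -1.11 at 6 h and 12 h in A2780, and -0.99 and -2.22 in A2780cis. KIF4A, a chromosome-bound kinesin, had log2 FC -0.51 and -0.95 at 6 h and 12 h in A2780, and -0.52 and -1.53 in A2780cis. KIF2C (MCAK), which takes microtubules apart, had log2 FC -0.36 and -0.24 at 6 h and 12 h in A2780, and -0.40 and -0.79 in A2780cis. All of these values passed the test. PRC1, which bundles the central spindle, had log2 FC -0.65 and -0.52 at 6 h and 12 h in A2780, and -0.50 and -1.03 in A2780cis, all past the test, and NUSAP1 had log2 FC -0.40 and -0.11 at 6 h and 12 h in A2780, and -0.25 and -0.71 in A2780cis, of which the A2780 6 h and A2780cis 12 h values passed. Both are uncertain, since other annotated genes share 61.9% of the exon bases of PRC1 and 86.8% of those of NUSAP1.

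Genes of anaphase and mitotic exit held the second largest fall at 12 h. CDC20, which activates the anaphase-promoting complex and is held back by the checkpoint, had 74.1, 100 and 96.6 CPM untreated and 45, 44.2 and 39 CPM treated at 6 h, and 112, 116 and 143 CPM untreated and 34.4, 35.3 and 32.9 CPM treated at 12 h in A2780. CDC20 in A2780cis had 128, 139 and 132 CPM untreated and 60.1, 52.9 and 62.6 CPM treated at 6 h, and 166, 186 and 194 CPM untreated and 24.1, 23.4 and 23.9 CPM treated at 12 h. The untreated libraries were higher at 12 h than at 6 h in both lines and the treated ones were lower, and log2 FC -1.08 and -1.86 at 6 h and 12 h in A2780, and -1.18 and -2.93 in A2780cis gave 3.62-fold and 7.64-fold lower levels at 12 h (adjusted p = 2.26e-16 in A2780cis, edgeR). UBE2C, the ubiquitin-conjugating enzyme of that complex, had 83.6, 91.9 and 79.5 CPM untreated and 43.1, 41.2 and 40.4 CPM treated at 6 h, and 85.3, 87.7 and 94.9 CPM untreated and 50, 54 and 51.6 CPM treated at 12 h in A2780. UBE2C was at 83.9, 85.6 and 96.4 CPM untreated and 49.6, 43.2 and 43.9 CPM treated at 6 h, and 83.4, 86.3 and 88.5 CPM untreated and 38.5, 29.9 and 38 CPM treated at 12 h in A2780cis. UBE2C fell at every point, with log2 FC -1.03 and -0.78 at 6 h and 12 h in A2780, and -0.96 and -1.28 in A2780cis.

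PTTG1 (securin), which holds separase inactive, had 77.1, 101 and 72 CPM untreated and 46.4, 50 and 53.3 CPM treated at 6 h, and 75.2, 71.2 and 67.1 CPM untreated and 35.5, 36.1 and 35.3 CPM treated at 12 h in A2780. PTTG1 in A2780cis had 100, 87.5 and 123 CPM untreated and 77.7, 74.2 and 67.1 CPM treated at 6 h, and 85.1, 79.7 and 75.1 CPM untreated and 58, 37.8 and 65.6 CPM treated at 12 h. PTTG1 fell at all 4 points, and at 12 h the A2780 value (-1.0) lay below that of A2780cis (-0.57), though the difference between the lines did not pass the test (adjusted p = 0.141, edgeR). ESPL1 (separase) had 50.5, 46.4 and 60.5 CPM untreated and 52.5, 49.7 and 47.9 CPM treated at 6 h, and 82.9, 87.5 and 92 CPM untreated and 50.7, 67.1 and 63.3 CPM treated at 12 h in A2780. ESPL1 had 69.5, 72.9 and 54.1 CPM untreated and 61.2, 61.3 and 63.2 CPM treated at 6 h, and 101, 121 and 130 CPM untreated and 47.6, 61.2 and 49 CPM treated at 12 h in A2780cis. ESPL1 overlapped at 6 h in both lines (-0.07 and -0.08) and fell at 12 h (-0.53 and -1.15), where its untreated level was higher than at 6 h.

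CDCA5 (sororin), which protects cohesin until anaphase, went against the rest in A2780. CDCA5 had 75.7, 94.6 and 90.6 CPM untreated and 132, 136 and 115 CPM treated at 6 h, and 103, 98.4 and 104 CPM untreated and 138, 141 and 138 CPM treated at 12 h in A2780. CDCA5 was at 110, 102 and 109 CPM untreated and 106, 116 and 125 CPM treated at 6 h, and 122, 132 and 129 CPM untreated and 122, 105 and 134 CPM treated at 12 h in A2780cis. Every treated A2780 library was above every untreated one, and CDCA5 rose by 0.56 and 0.45 on the log2 scale, whereas the A2780cis libraries overlapped (0.11 and -0.08). CDCA3, a factor of mitotic entry, had log2 FC -0.65 and -0.55 at 6 h and 12 h in A2780, and -0.52 and -0.66 in A2780cis, all past the test.

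TOP2A, the topoisomerase that untangles chromosomes, was the most abundant member per exon length in untreated A2780cis at 12 h (110 RPKM). TOP2A had 746.6, 742.7 and 671 CPM untreated and 266, 304 and 328 CPM treated at 6 h, and 694, 665 and 514 CPM untreated and 305, 271 and 281 CPM treated at 12 h in A2780. In A2780cis TOP2A had 852, 856 and 831 CPM untreated and 522, 460 and 413 CPM treated at 6 h, and 773, 686 and 634 CPM untreated and 197, 172 and 158 CPM treated at 12 h. TOP2A fell at every point without overlap, 2.19-fold and 3.98-fold at 12 h. MKI67 (Ki-67), the proliferation mark that coats mitotic chromosomes, had 409, 371 and 398 CPM untreated and 219, 215 and 220 CPM treated at 6 h, and 425, 440 and 434 CPM untreated and 179, 215 and 219 CPM treated at 12 h in A2780. MKI67 in A2780cis had 605, 788 and 428 CPM untreated and 344, 295 and 293 CPM treated at 6 h, and 576, 619 and 610 CPM untreated and 101, 134 and 95.2 CPM treated at 12 h. MKI67 fell in all 4 comparisons, by 1.09 on the log2 scale in A2780 and 2.45 in A2780cis at 12 h.

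FOXM1, the transcription factor that acts on many of these genes, differed between the lines. FOXM1 had 71.5, 87 and 82.2 CPM untreated and 93, 94.6 and 81.5 CPM treated at 6 h, and 96.4, 111 and 134 CPM untreated and 125, 141 and 138 CPM treated at 12 h in A2780. FOXM1 was at 95.4, 116 and 94.4 CPM untreated and 84.9, 76.3 and 84.8 CPM treated at 6 h, and 122, 144 and 142 CPM untreated and 72.3, 72.8 and 69.6 CPM treated at 12 h in A2780cis. The A2780 libraries overlapped at both times (0.16 and 0.24, the latter with a 95% interval of 0.02 to 0.47), and in A2780cis FOXM1 fell at 6 h (-0.31) and 12 h (-0.93 ± 0.11, adjusted p = 6.38e-08, edgeR). ITFG2, an antisense gene that shares 15.9% of the exon bases of FOXM1, had log2 FC 0.14 in A2780 and -0.79 in A2780cis at 12 h.

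Whether the lines responded differently was tested as the interaction of line and treatment, where a negative value means a lower response in A2780cis. At 6 h, 1 member passed, where 3.07% of all genes did (0.692% higher and 2.38% lower): KIF20A, with 0.57 ± 0.11 (adjusted p = 0.00397, edgeR). At 12 h, 36 members were lower in A2780cis and 0 higher, where 14.0% of all genes were lower and 9.70% higher (23.7% in either direction). The median interaction of the members was -0.64 at 12 h, against -0.04 over all genes. MKI67 had the largest, -1.37 ± 0.20 (adjusted p = 3.65e-05, edgeR), followed by NDC80 (-1.18) and FOXM1 (-1.17). PLK1, which fell most in both lines, differed by -0.74, and CDC20 by -1.08. Of the 36, 29 also fell in both lines, so that the lines differed in the size of the fall. In the 7 others, AURKB, BUB3, NDC80, FOXM1, NUSAP1 and CKAP2L fell at 12 h in A2780cis and did not pass in A2780, and CDCA5 rose in A2780 and did not pass in A2780cis.

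The interaction did not pass at 12 h for CDK1, MAD2L1, NUF2, SPC24, SPC25, PTTG1, CDCA3, NEK2, CDC25B and CDC25C. For CDK1 the 95% interval of the difference was -0.69 to -0.03, and for SPC24 -0.23 to 0.38. Across the 46 genes, the log2 FC values of the lines ran together, with Pearson r 0.90 at 6 h and 0.89 at 12 h, which describes these genes and is no test, since all values of a line come from the same libraries.

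**Figure D4:**
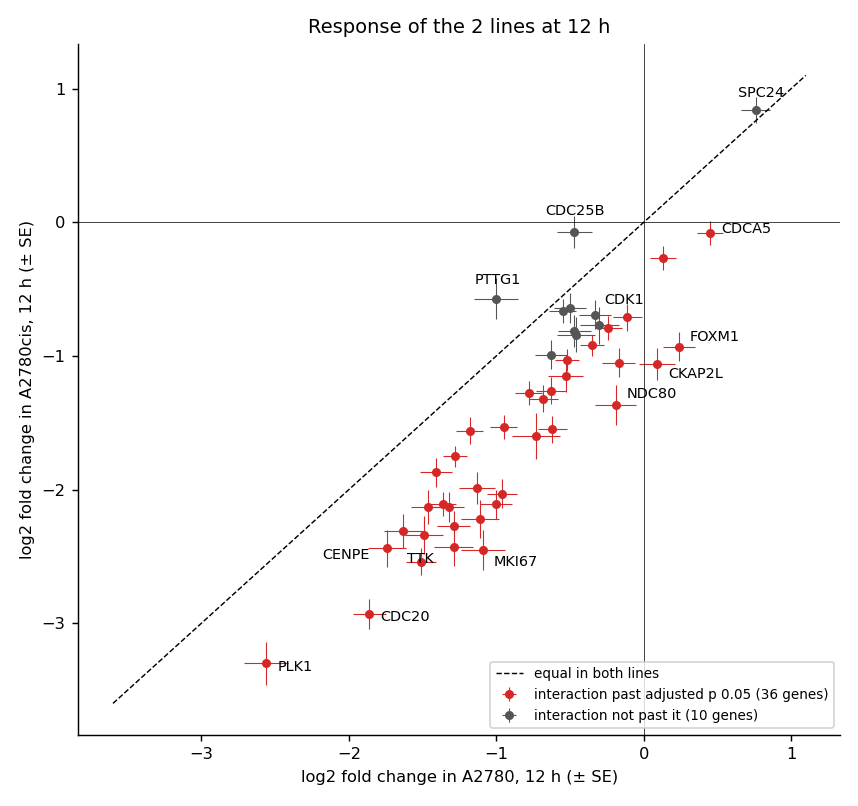
Log2 fold change at 12 h in A2780 (horizontal) and A2780cis (vertical) for the 46 genes, with SE bars and the line of equal response; red marks an interaction with an adjusted p of at most 0.05. All 36 red points lie below the line, MKI67, NDC80 and FOXM1 among the farthest from it, and SPC24 lies close to it.

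From 6 h to 12 h the response was compared within each line as the difference of its log2 FC values. In A2780cis, 30 members had a lower value at 12 h and 1 a higher, where 13.6% and 10.3% of all genes did (24% in either direction). In A2780, 6 were lower and 7 higher, where 13% and 10.7% of all genes were (23.7% in either direction). The A2780 count of 13 is 28.3% of the members, close to the share of all genes. With library size alone as the scaling, 4 were lower and 11 higher, and 4 were higher without replicate 1 of either 6 h group or replicate 3 of the untreated 12 h group. PLK1, BUB1, BUB1B, KIF4A, CDC20 and ANLN were lower at 12 h in both lines. PLK1 moved by -0.86 in A2780 and -1.76 in A2780cis, CDC20 by -0.78 and -1.75, and ANLN by -0.56 and -1.55. The untreated 12 h libraries enter these values: PLK1 in untreated A2780 went from 56.6 ± 8.51 to 90.3 ± 16 CPM (mean ± SD, n = 3), while the treated level was 17.4 ± 2.92 at 6 h and 15.3 ± 1.35 CPM at 12 h. For ANLN in A2780cis the treated level itself was lower at 12 h, 53.1 ± 5.63 against 177 ± 20.8 CPM.

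The 7 members whose response in A2780 was higher at 12 h than at 6 h were BUB3, NDC80, NUF2, SPC24, KIF23, CKAP2L and CDC25C. CKAP2L moved by 1.22 ± 0.18 (adjusted p = 3.25e-05, edgeR), NDC80 by 0.93 and CDC25C by 0.63. NDC80 in treated A2780 had a mean of 34.4 ± 4.4 CPM at 6 h and 59.9 ± 5.79 CPM at 12 h. In A2780cis SPC24 was the 1 member whose response was higher at 12 h (0.67). Pearson r between the log2 FC values at 6 h and 12 h over the 46 genes was 0.78 in A2780 and 0.86 in A2780cis, again as a description.

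**Figure D5:**
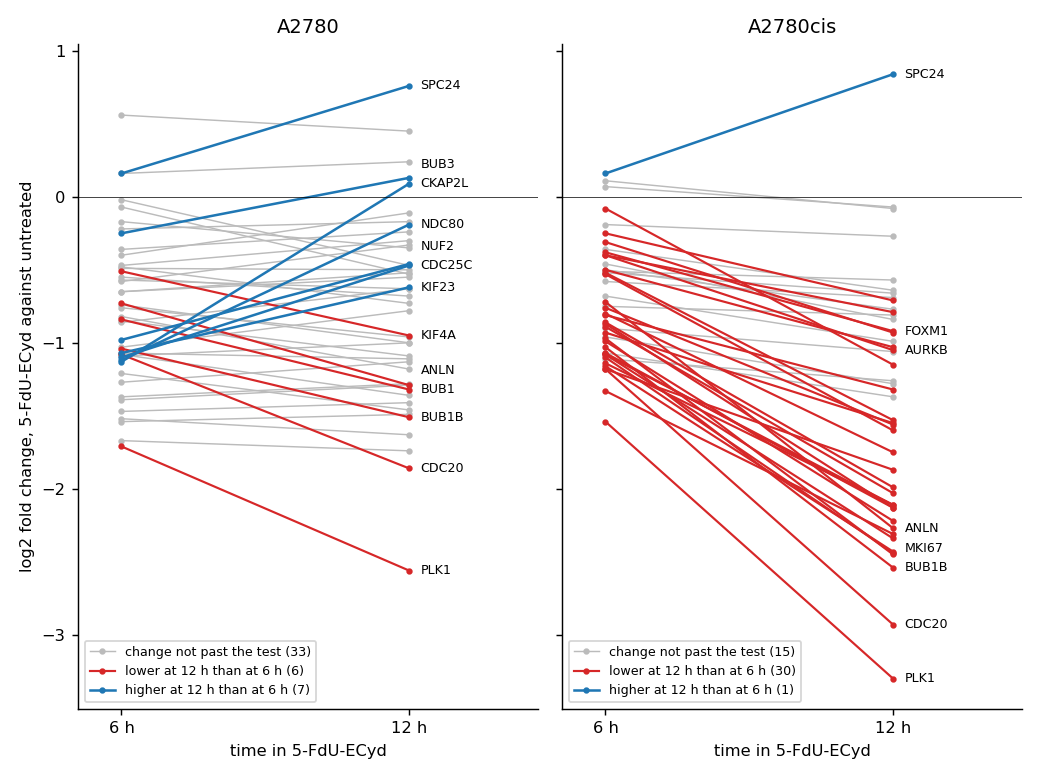
Log2 fold change of each of the 46 genes (lines) at 6 h and 12 h of 5-FdU-ECyd in A2780 (left) and A2780cis (right); red and blue mark genes whose value at 12 h was lower or higher than at 6 h with an adjusted p of at most 0.05, and grey the others. In A2780, 6 lines run down and 7 up, while in A2780cis 30 run down and SPC24 runs up.

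The untreated cells also changed with time. The share of members called, 32.6% in A2780, was close to the 26.9% of all genes. In A2780cis it was 34.8%, below the 39.9% of all genes. In untreated A2780, 13 members were higher at 12 h than at 6 h and 2 lower, where 16.6% and 10.3% of all genes were (26.9% in either direction). In untreated A2780cis, 11 were higher and 5 lower, where 18.0% and 21.9% of all genes were (39.9% in either direction), and 13 and 1 with library size alone. The lower count in A2780cis was 2 without replicate 3 at 6 h or without replicate 3 at 12 h, and 3 without replicate 2 at 12 h. INCENP (0.87 and 0.87 in A2780 and A2780cis), ESPL1 (0.74 and 0.84), CDC25B (0.73 and 0.56) and PLK1 (0.68 and 0.69) were among the 9 higher in both lines, with AURKB, SPC24, CDC20, BIRC5 and FOXM1. KIF23 was lower in both (-0.32 and -0.34). ANLN was the other lower member in A2780 (-0.29), and CDK1, CCNB1, BUB3 and PTTG1 were the others in A2780cis. The A2780 count was 7 without the untreated library of replicate 1 at 6 h and 8 without that of replicate 3 at 12 h, so these calls turned on single libraries.

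Between the untreated lines, the members were called no more often than all genes, at 32.6% and 47.8% at 6 h and 12 h. At 6 h, 12 were higher in A2780cis and 3 lower (8 and 9 with library size alone), where 25% and 22.9% of all genes were, 47.9% in either direction. At 12 h, 13 were higher and 9 lower, where 25.4% and 27.5% of all genes were, 52.9% in either direction. The lower count was 6 at 6 h without replicate 3 of untreated A2780cis, and 4 at 12 h without replicate 3 of that group. Higher at both times were BUB3, CENPA, KIF20A, KIF23, CDC20, CDCA5, FOXM1, MKI67, ESPL1 and CDC25B, and lower at both were CENPE, CENPF and CDCA8. After CDC25B, the largest at 6 h were KIF20A (0.67) and MKI67 (0.63), and at 12 h CDC20 (0.55) and MKI67 (0.47). CENPE was at -0.87 and -0.74, CENPF at -0.80 and -0.83, and CDCA8 at -0.42 and -0.56.

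In 6 further lists of 127 mitotic genes outside the 46, the falls were less general. Those lists, too, were chosen with earlier results of these data known. Together, 63 and 68 of them fell and 7 and 15 rose in A2780 at 6 h and 12 h, and 70 and 94 fell and 7 and 14 rose in A2780cis, with medians of -0.28, -0.37, -0.37 and -0.71. The shares lower were 49.6% and 53.5% in A2780 and 55.1% and 74.0% in A2780cis, against 13.4%, 26.1%, 16.3% and 28.9% of all genes, and at 12 h 28.6% and 31.0% of all genes were higher, with which the lists below can be read. The other spindle and cytokinesis genes had the lowest medians of the 6 lists: 28 of 28 fell in A2780cis at 12 h (median -1.45) and 22 of 28 in A2780 (-0.80). Among them CKAP5, a microtubule polymerase, was at -1.79 in A2780 and -2.15 in A2780cis. Of 22 cohesin and condensin genes, 19 fell in A2780cis and 16 in A2780 at 12 h. NCAPH, a condensin subunit, had -0.55 in A2780 and -1.58 in A2780cis, and the cohesin subunit STAG1 -1.29 and -1.89. ESCO2, which acetylates cohesin, rose in A2780 at 12 h (0.77).

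The anaphase-promoting complex, whose activator CDC20 fell so far, had 7 of 17 genes lower and 1 higher in A2780 at 12 h, and 8 lower and 5 higher in A2780cis, with medians of -0.10 and -0.19. The share higher in A2780cis, 29.4%, was close to the 31.0% of all genes. Its subunits ANAPC1 (-1.67 and -1.60) and CDC27 (-0.99 and -1.67) fell in both lines. FBXO5 (EMI1), the inhibitor of that complex, rose in A2780 (0.46) and fell in A2780cis (-0.62). Of the 32 inner and outer kinetochore genes, 11 fell and 9 rose in A2780 at 12 h, and 18 fell and 6 rose in A2780cis. The A2780 shares, 34.4% lower and 28.1% higher, were near those of all genes (26.1% and 28.6%), while in A2780cis 56.2% were lower, against 28.9%. CENPU, of the inner kinetochore (1.12 and 1.11), and DSN1, which carries the NDC80 complex (0.92 and 0.77), rose in both lines, as SPC24 did. MAD1L1, the MAD2 anchor (-1.67 and -2.18), and HJURP, the CENPA chaperone (-0.57 and -1.48), fell in both.

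Of the 11 genes of the MuvB and DREAM complexes, which read the CHR, 4 fell and 2 rose in A2780 at 12 h, and 9 fell and 1 rose in A2780cis. With 11 genes, the A2780 shares of 36.4% lower and 18.2% higher were near the 26.1% and 28.6% of all genes, and in A2780cis 81.8% were lower, against 28.9%. LIN37 rose in both (0.93 and 0.75) and LIN54, the DNA-binding subunit, rose in A2780 (0.31) and fell in A2780cis (-0.69). RBL1 (p107) fell in both (-0.69 and -1.34). Of 17 genes that control G2/M entry, 8 fell and 2 rose in A2780 (47.1% lower, against 26.1% of all genes), and 12 fell and 2 rose in A2780cis (70.6%, against 28.9%). CDK7, the CDK-activating kinase (-1.05 and -1.24), and CKS2, a CDK1 subunit (-1.15 and -0.90), fell in both, and MASTL, the Greatwall kinase, rose in A2780 (0.49). ENSA rose in both (0.24 and 0.60), and CKS1B did not pass in A2780 (-0.20) and rose in A2780cis (0.52).

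The length of a gene was weakly related to its response. Over 13881 protein-coding genes, the Pearson r of log2 FC with the log10 of the gene's span was -0.30, -0.21, -0.30 and -0.34 in A2780 at 6 h and 12 h and in A2780cis at 6 h and 12 h. Over the 46 members it was -0.17, -0.06, -0.08 and -0.18. Genes within a library are not independent replicates, so these values carry no test.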

How the data were processed

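RNA from A2780 and A2780cis cells was sequenced as stranded total RNA libraries. According to the study's methods and the submitters' processing notes, the authors trimmed reads with Trimmomatic, aligned them to GRCh38.p7 with STAR 2.5.2b and counted them on exons with featureCounts, giving multi-mapping reads as fractions. The deposited values are therefore expected counts per gene and library, not normalized. The listed settings allowed a read to be assigned to several overlapping genes. No strand setting is given in the sources used here, and the sources differ on single or paired reads. Libraries held 11077368 to 21901406 counts. The counts were rounded to whole numbers, filtered with filterByExpr (minimum count 10), scaled by TMM and fitted with edgeR 4.0.16 in R 4.3.3, with 1 coefficient for each of the 8 groups, 16 residual degrees of freedom and quasi-likelihood tests over 20240 genes, with Benjamini-Hochberg adjustment and a threshold of 0.05. The fit was tested on simulated data with known changes. CPM are TMM-scaled, and RPKM divide them by the exon length of GENCODE 44 in kilobases. The alternatives were DESeq2 1.42.0, other scalings, no filter, no rounding, a replicate block, fits of the compared libraries alone and each library left out in turn.

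The 46 genes, their roles and the 6 further lists were chosen with earlier results of these data known. All 46 could be named, 25 core genes were given in full for every library, and so were the 3 largest rises and falls among the members past the threshold in each comparison. From each further list, up to 2 genes in each direction with the smallest p in each line at 12 h could be named. Fractional counts occurred in 29 of the 46 genes. Promoter windows and their coordinates are those of RefSeq on GRCh38.p14. Libraries of the same group did not agree within sampling noise (chi-square per degree of freedom 2.23 to 25.8), so none was counted as a duplicate.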

Additional observations from a re-analysis of the deposited data

Results flagged for a closer look

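The response to 5-FdU-ECyd differed between the lines at 12 h by the test of the interaction for 36 members, each lower in A2780cis. These were 78.3% of the members, against 23.7% of all genes. At 6 h it differed for 1, KIF20A (0.57, higher in A2780cis). That is 2.17% of the members, no more than the 3.07% of all genes. Among the cyclins the interaction at 12 h was -0.66 for CCNB1, -0.38 for CCNB2 and -0.64 for CCNA2. Among the kinases it was -0.46 for AURKA, -0.87 for AURKB and -0.74 for PLK1. The checkpoint gene BUB1B stood at -1.03. Of the kinetochore genes, NDC80 had -1.18, CENPE -0.71 and CENPF -0.85. The spindle genes KIF11, KIF20A and TPX2 had -1.07, -0.47 and -0.74, so that KIF20A was the 1 gene with a difference at both times and of opposite sign. CDC20, UBE2C and ESPL1 of anaphase had -1.08, -0.50 and -0.62, and BIRC5 had -0.57. TOP2A, FOXM1 and MKI67 had -0.86, -1.17 and -1.37.

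The response also differed between 6 h and 12 h, for 13 members in A2780 (28.3%, close to the 23.7% of all genes) and 31 in A2780cis (67.4%, against 24%). In A2780 the change of log2 FC from 6 h to 12 h was 1.22 for CKAP2L, 0.93 for NDC80 and 0.63 for CDC25C at the upper end, and -0.86 for PLK1, -0.78 for CDC20 and -0.56 for ANLN at the lower end. In A2780cis it was 0.67 for SPC24, and -1.76, -1.75 and -1.55 for PLK1, CDC20 and ANLN. Whether the change with time itself differed between the lines was not tested. Groups of 3 libraries were not tested for single outlying samples.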

How the results depend on the processing

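Over 150 log2 FC values of the 25 core genes in the 4 treatment comparisons and the interactions, 2250 alternative values were computed: 2152 kept direction and side of the threshold, 36 no longer passed it, 15 newly passed it and 47 changed sign, none of these last past the threshold in either setting. With library size alone the medians of all genes shifted to 0.10, 0.24, 0.10 and 0.15 in A2780 at 6 h and 12 h and A2780cis at 6 h and 12 h, and 31 members fell and 5 rose in A2780 at 12 h. This setting also turned the sign of AURKB (0.05) and NDC80 (0.03) in A2780 at 12 h, ESPL1 in A2780cis at 6 h (0.02), and CDC25B in A2780 at 6 h (0.04) and A2780cis at 12 h (0.04). The ESPL1 interaction at 6 h was 0.01 with DESeq2's size factors, without the filter and by DESeq2, 0.02 with library size alone and 0.05 in the fit of the compared samples. The interaction count at 6 h was 1, and 2 without the filter, 3 by DESeq2 and 1 to 3 with a library left out (3 without replicate 2 of untreated A2780 at 6 h). In untreated A2780, 15 members differed between 12 h and 6 h, against 8 without the filter and 7 to 15 with a library left out; the cause was not tested. All other totals of called members stayed within 1.5 times, but counts in 1 direction moved further: the higher count in A2780 at 12 h went from 2 to 5 with library size alone, that of the 12 h interaction from 0 to 1 with the block or a library left out, the untreated lower counts from 2 to between 0 and 5 in A2780 and from 5 to between 1 and 7 in A2780cis, those between untreated lines from 3 to between 3 and 9 at 6 h and from 9 to between 4 and 11 at 12 h, and the higher count of the A2780 change with time from 7 to between 4 and 11. Leaving out the 6 members that share over 10% of their exon bases with another gene, chosen after seeing the data, left 34, 33, 35 and 37 of 40 lower in the 4 treatment comparisons and 31 in the 12 h interaction.

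With a library left out, sign changes were seen in these ranges: in the 6 h interaction, CDK1 (-0.08 to 0.08), CCNB2 (0.0 to 0.12), BUB1B (-0.09 to 0.06), NDC80 (-0.06 to 0.19), TPX2 (-0.05 to 0.07), CDC20 (-0.19 to 0.02), ESPL1 (-0.13 to 0.07), MKI67 (-0.32 to 0.11) and CDC25B (-0.01 to 0.20); in the 12 h interaction, MAD2L1 (-0.24 to 0.02); in A2780 at 6 h, ESPL1 (-0.15 to 0.04) and CDC25B (-0.13 to 0.07); and in A2780cis, ESPL1 at 6 h (-0.20 to 0.0) and CDC25B at 6 h (0.0 to 0.13) and 12 h (-0.18 to 0.02).

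Replicate numbers gave no uniform pairing: same-numbered treated and untreated libraries had correlations of their deviations between -0.698 and 0.621, and not every library correlated best with its own number. In A2780cis at 12 h all 3 were positive (0.621, 0.291 and 0.0963). With 3 libraries per group, these values cannot settle whether libraries were paired. With the replicate block, 40, 40, 41 and 44 members were called in the 4 treatment comparisons, 37 in the 12 h interaction and 1 in that at 6 h, 16 and 31 in the change with time, 16 and 17 in the untreated time comparisons and 16 and 22 between untreated lines. Under the block the 6 h interactions of CDK1 (-0.01) and BUB1B (0.0) changed sign.

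The lowest level of a member in any library was 5.91 CPM (CENPA in treated A2780cis at 12 h). Libraries held at least 11077368 counts, but the lowest counts of CDC25C and CENPA were 74 and 87. The fitted count model includes counting noise. For members with counts this low, its share of the spread between the 3 libraries of a group was not worked out.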
